A study of Mus musculus with 4 samples.

Results

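Solute carriers are the membrane proteins that move amino acids, sugars, ions, metals, vitamins and lipids across the plasma membrane and the membranes of organelles, and the gene names number them by family. The expressed solute carriers outside the mitochondrial Slc25 family were examined here in the oligodendrocytes of the mouse cerebral cortex, the glia that make myelin. A gene was included where its symbol began with Slc, a family number, the letter a and a member number, and it was selected on its FPKM (fragments per kilobase of transcript, scaled to the mapped fragments of the library), which had to reach 1 or more in any 2 of the 4 libraries. Of 299 such rows outside Slc25, 10 names were left out by the rule (Slc1a2, Slc1a3, Slc2a1, Slc2a3, Slc11a2, Slc16a1, Slc16a3, Slc27a2, Slc38a5 and Slc40a1). Of the other 289 rows, 113 reached the level and 176 did not, among them 39 listed at 0 in every library. The 113 members come from 39 families and stand within a table of 35869 rows, 10754 of which reached the same level and were tested. Of the members, 4 are named after a carrier without being one, namely the scaffold proteins Slc9a3r1 and Slc9a3r2, the adaptor Slc4a1ap, and Slc7a6os, which is transcribed from the strand opposite to Slc7a6.

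The libraries were 2 from Zfp488 knock-in homozygotes, called Zfp488 KO in the labels (KO), and 2 from wild-type mice (WT). Zfp488 encodes a zinc finger protein of the oligodendrocyte lineage. The cells of both genotypes were sorted from cortex at postnatal day 5 as positive for O4 and GalC, surface lipids of late precursors and differentiating oligodendrocytes. The study concerns the timing of myelination, and the comparison asks how transcripts differ between the genotypes. No source used here gives the design of the allele, the number of animals per library or whether the libraries of a genotype came from separate animals, so a p-value here reflects library-to-library spread alone, and that spread may be technical.

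Developing oligodendrocytes import amino acids, choline and fatty acids for membrane synthesis, and many carriers of the plasma membrane work as pairs or exchange one substrate for another. LAT1, for example, the exchanger of large neutral amino acids encoded by Slc7a5, is held at the membrane by the heavy chain encoded by Slc3a2. Zinc is imported into the cytosol by the Slc39 (ZIP) family and removed from it by the Slc30 (ZnT) family.

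The labelled cell type held in the markers: summed FPKM of Olig1, Olig2 and Sox10 was 2240 and 2180 in KO 1 and KO 2, and 1940 and 2060 in WT 1 and WT 2. The libraries differed in other cell types by library number. The 7 endothelial markers summed to 9.45 and 39.2 FPKM in KO and to 5.26 and 35.7 FPKM in WT, with 1 higher and 1 lower in both KO libraries. Cldn5 made up most of the sums in the libraries numbered 2. It was at 0.035 and 26.3 FPKM in KO 1 and KO 2, and at 0 and 26.8 FPKM in WT 1 and WT 2. Pecam1 was below 0.1 FPKM in every library, and Slc2a1 went by genotype (9.41 and 9.37 FPKM in KO, 5.25 and 7.11 in WT). The 7 pericyte and fibroblast markers summed to 3.55 and 20.7 FPKM in KO and to 0.449 and 21.1 FPKM in WT. The 8 astrocyte markers summed to 117 and 258 FPKM in KO and to 91.6 and 171 FPKM in WT, with 0 of 8 higher and 1 lower in both KO libraries, and the 7 microglial markers to 39.7 and 69.8 FPKM in KO and to 41.3 and 67.3 FPKM in WT. Of the 6 myelin markers, 5 were lower in both KO libraries than in both WT libraries, and all 4 precursor markers were higher. Zfp488 itself was at 4.82 and 4.11 FPKM in KO and at 6.61 and 5.29 FPKM in WT (limma, adjusted p = 0.95, not past the threshold). Total reads were not given. Low values gathered at a peak, which held 17.7% to 20.3% of the rows used and was taken as 1 read. On that assumption, 1 FPKM on 1 kb stood for roughly 40 and 38.8 reads in KO 1 and KO 2. In WT 1 and WT 2 it stood for 37.1 and 43.8 reads.

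The members were chosen by these FPKM, without regard to genotype, so their levels are a description. Of the members, 84 were at 1 FPKM or more in every library, 4 reached the level through KO alone (Slc10a4, Slc7a1, Slc37a3 and Slc43a2) and 1 through WT alone (Slc22a21), so these 5 had to differ. Just inside the level were Slc43a2, Slc7a1 and Slc36a4, with a second highest library at 1.01, 1.02 and 1.08 FPKM. Just outside were Slc13a5, Slc4a3 and Slc14a1, at 0.964, 0.925 and 0.899 FPKM.

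A few carriers made up most of the summed FPKM of the members, a sum without the Slc25 family and the left-out names. The 15 highest members held 64.2% of the summed FPKM of all 113, and the highest 3 held 32.3%. Slc22a17, which encodes a receptor for the iron-binding protein lipocalin-2, stood first with 252 and 211 FPKM in KO and 235 and 200.4 FPKM in WT. Slc1a1, a transporter of glutamate, aspartate and cysteine (EAAT3), followed with 151 and 96.1 FPKM in KO and 168 and 87.0 FPKM in WT. The level of Slc22a17 differed less between libraries than that of Slc1a1, which was high in both libraries numbered 1, and the genotypes overlapped for both genes. Further down the order were Slc39a7, a zinc channel of the endoplasmic reticulum (63.3 to 81.9 FPKM in KO, 76.6 to 89.0 in WT), and Slc48a1, the heme transporter HRG1 (51.9 to 53.6 FPKM in KO, 54.5 to 54.7 in WT). Most members were lower than these: 54 had a mean between 2 and 10 FPKM, 24 between 1 and 2, and 6 below 1. The median member was at 3.94 FPKM, against 6.25 FPKM for all rows tested.

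**Figure D1:**
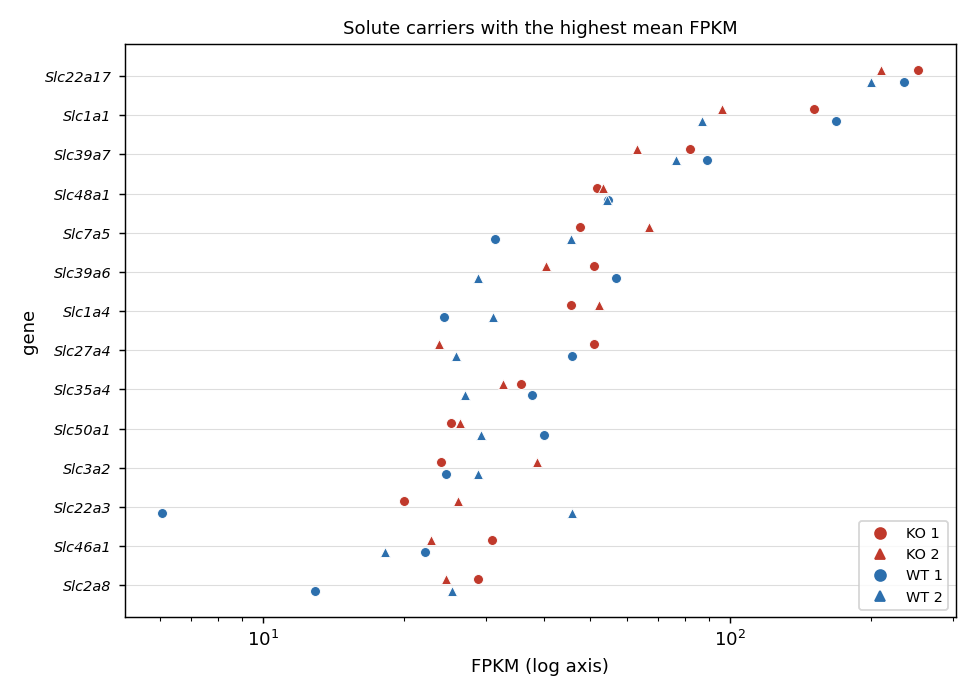
FPKM on a log axis of 14 of the 15 solute carriers with the highest mean, 1 row per gene, with KO libraries in red and WT libraries in blue (circles library 1, triangles library 2). Slc22a17 and Slc1a1 stand above the rest, and Slc22a3 has its lowest and its highest value in the WT libraries (6.08 and 45.9 FPKM).

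Between the genotypes, solute carriers were more often higher in KO than lower. Both KO libraries lay above both WT libraries for 31 of 113 members (27.4%), where 16.6% of all rows tested did so, and below for 10 (8.85%), where 18.3% of all rows did so. The median log2 fold change of KO over WT, taken on log2(FPKM + 1), was 0.16 for the members and 8.11e-05 for all rows, and 75 members (66.4%) were above 0, where 5378 of all rows were. No member passed the test by limma: 0 of 113 had an adjusted p under 0.05, as for all rows (0.0% called), and 8 members (7.08%) had an unadjusted p under 0.05, against 5.65% of rows. All 8 were higher in KO and 0 lower, where 2.81% and 2.85% of all rows were so placed. Among these 8 were Slc10a4, Slc44a2, Slc1a4, Slc27a6, Slc31a1, Slc46a3 and Slc38a3, with adjusted p between 0.859 and 0.876. The counts rest on the scaling and on few libraries. With libraries rescaled to TPM the split was 37 higher and 6 lower, when 21.7% and 13.1% of all rows were so placed. Left-out libraries moved the number at an unadjusted p under 0.05 to 2 without KO 1, 4 without KO 2, 5 without WT 1 and 10 without WT 2. In the same order, with a lone library against 2, the groups separated upward for 44, 48, 54 and 48 members and downward for 32, 19, 28 and 34, where upward shares of all rows were 33.3%, 30.5%, 31.8% and 35.5% and downward shares 32.7%, 33.8%, 36.6% and 34.4%.

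**Figure D2:**
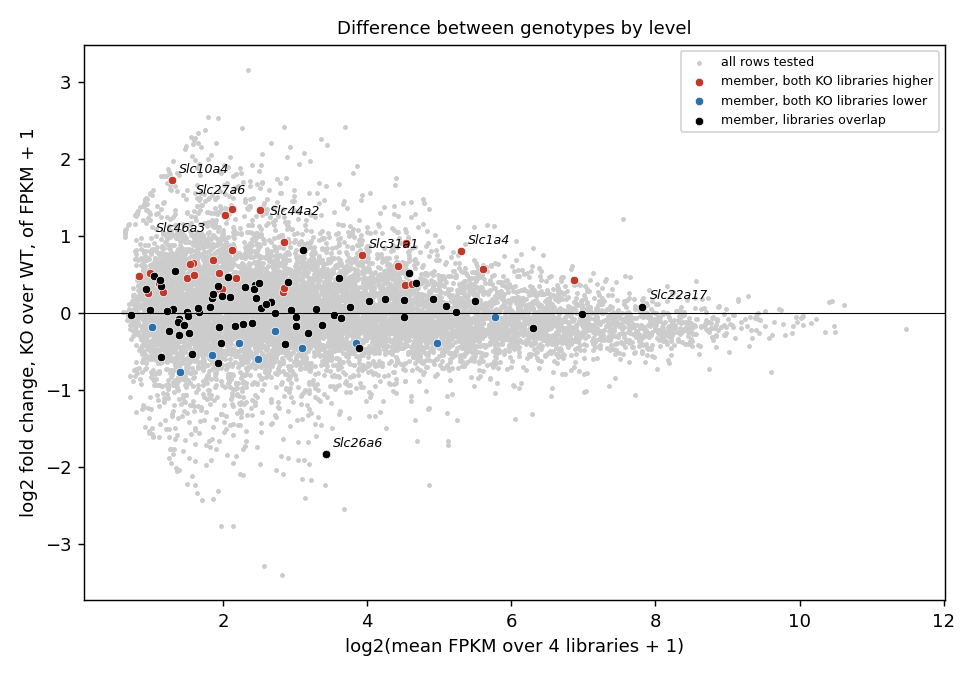
Difference between genotypes (log2 fold change of FPKM + 1, KO over WT) against mean level for all rows tested (grey) and the solute carriers (coloured by whether the libraries of the genotypes overlap). Red points, 31 members with both KO libraries higher, outnumber the 10 blue points, and Slc26a6 lies lowest because KO 1 is listed at 0.

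Over all rows, but not among the members, the difference rose with transcript length. The median member transcript was 3566 bp long, against 2931 bp for all rows, and the median log2 fold change over all rows was -0.12 for transcripts up to 2177 bp, 0.035 for those up to 3717 bp and 0.11 for longer ones. Among the members it was 0.15 for 11 in the shortest class, 0.19 for 48 in the middle class and 0.082 for 54 in the longest. With the trends over length and level removed from each library, the members' median was 0.086, with 25 higher and 10 lower, when 15.2% and 16.5% of all rows were so placed.

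The amino acid and peptide carriers are the role with the most members. Of its 24 genes, 11 lay higher in both KO libraries (45.8%, against 16.6% of all rows), 1 lay lower (18.3% of all rows) and 12 overlapped. Their median log2 fold change was 0.38. It stayed between 0.34 and 0.40 with any library left out, and was 0.29 with the trends over length and level removed. With no filter on low values, which adds carriers below the level, it was 0.071. The number higher was 8 with the trends removed (15.2% of all rows) and 9 by quantile normalization (16.2% of all rows). It was also 9 with the filter set on the mean FPKM (16.3% of all rows). Slc7a1 and Slc43a2, among the 11 genes, reached the level through KO alone, so they had to lie higher. The single lower member, Slc7a6os, is no carrier. None passed the test, and 2 were at an unadjusted p under 0.05.

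Slc1a4, a neutral amino acid exchanger that carries serine (ASCT1), was at 45.6 and 52.3 FPKM in KO and 24.4 and 31 FPKM in WT. The lower KO library lay well above the higher WT library, and the log2 fold change was 0.81 (SE 0.23; limma, adjusted p = 0.859). Slc7a5, the LAT1 exchanger, was at 47.8 and 67.1 FPKM in KO and 31.4 and 45.5 FPKM in WT (log2 fold change 0.57, SE 0.29; adjusted p = 0.914). The gap between KO 1 and WT 2 was small for this gene, and the value was 0.33 without KO 2 and 0.31 without WT 1. Its heavy chain gene Slc3a2 overlapped between genotypes, at 24 and 38.7 FPKM in KO and 24.6 and 28.8 FPKM in WT, with KO 2 the high library in both. Slc38a3, a glutamine transporter (SNAT3), was at 25.0 and 24.9 FPKM in KO and 14.9 and 17.1 FPKM in WT (log2 fold change 0.62, SE 0.24; limma, adjusted p = 0.876). The KO libraries of this gene were nearly equal. Slc7a8, which encodes the LAT2 exchanger, was at 3.31 and 3.51 FPKM in KO and 2.84 and 0.942 FPKM in WT (log2 fold change 0.69, SE 0.46; adjusted p = 0.928), so that WT 2 alone was far below, and the value was 0.20 without it and 1.18 without WT 1.

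The remaining members above both WT libraries were the amino acid transporters Slc38a2 and Slc38a7, the cationic amino acid family members Slc7a1, Slc7a3 and Slc7a4, the peptide transporter Slc15a2 and Slc43a2, a carrier of branched amino acids. Slc38a2 was the highest of them, at 29.9 and 20.5 FPKM in KO and 17.7 and 20.3 FPKM in WT, and its KO 2 and WT 2 values were nearly equal. Slc7a3 was at 3.64 and 3.46 FPKM in KO and 1.95 and 2.42 FPKM in WT. Slc7a10, an exchanger of small neutral amino acids including D-serine, was low in WT 1 alone, at 7.74 and 6.77 FPKM in KO and 3.32 and 7.97 FPKM in WT. Slc1a5, the glutamine exchanger ASCT2, was listed at 0.003 FPKM in WT 1 and at 2.55 in WT 2, against 1.97 and 1.56 in KO, and Slc7a14 was listed at 0.014 and 1.65 FPKM in WT, against 1.18 and 1.41 in KO. Whether such single low values are failed estimates was not tested. The 4 precursor markers, which were higher in both KO libraries, summed to 220 and 211 FPKM in KO and to 138 and 163 FPKM in WT. Their part in the amino acid carrier values was not tested. In bulk RNA, fewer cells of a type and less RNA per cell cannot be told apart.

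**Figure D3:**
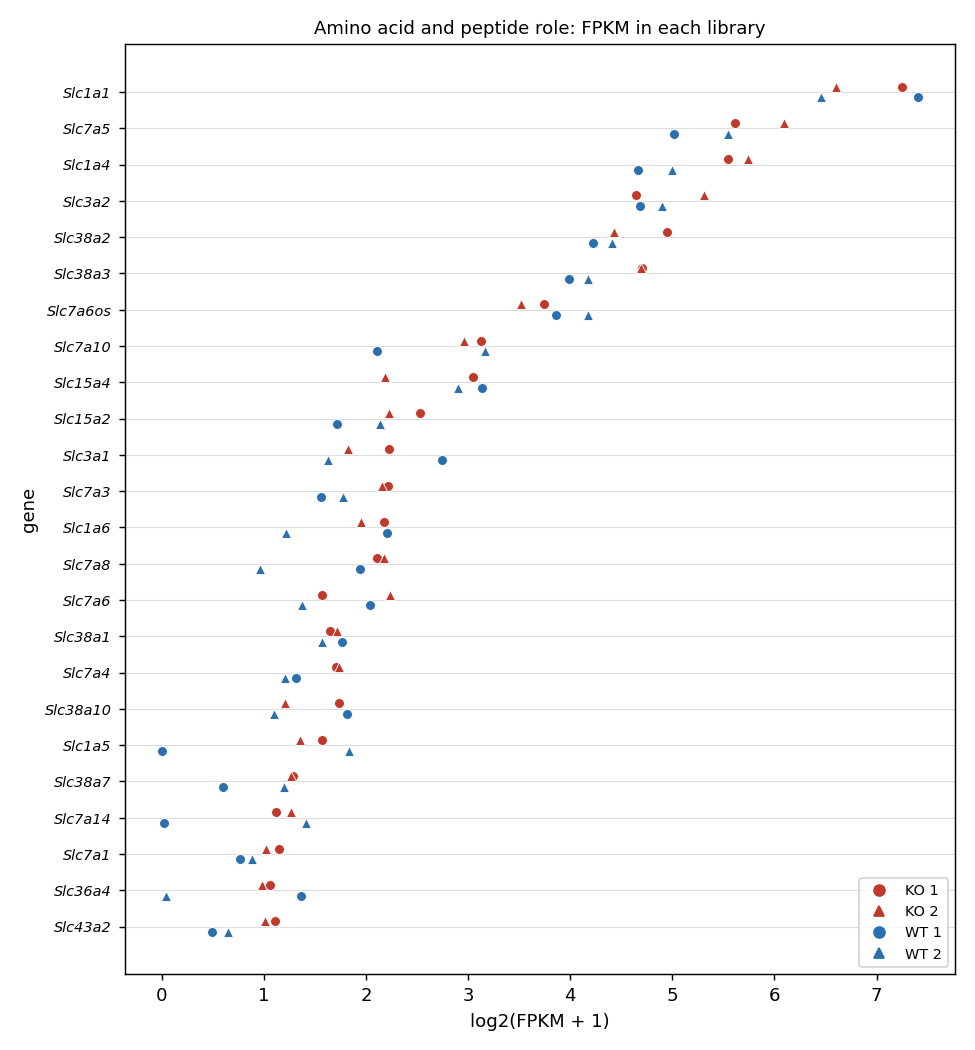
log2(FPKM + 1) of the 24 genes of the amino acid and peptide role in each library, ordered by mean, with KO in red and WT in blue (circles library 1, triangles library 2). For 11 genes, among them Slc7a5, Slc1a4 and Slc38a3, both red symbols lie right of both blue ones, and for Slc7a6os both lie left.

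The promoter of Slc1a4 is shown because it holds a match to the response element bound by ATF4 and C/EBP factors. Through this element amino acid shortage is known to act on transporter genes. Any such action on Slc1a4 was not tested. The element was searched as TGATGNAA on both strands in RefSeq promoters of 300 bases (250 before the start and 50 after it, GRCm38.p6), which were given for 85 of the 113 members. It was found in 1 of the 18 amino acid and peptide members with a promoter, where a match in any promoter of a gene counted. Of all 32851 promoters, each counted singly, 3.97% held it. In the Slc1a4 sequence (chr11:20332664-20332963, minus strand, written 5′ to 3′ along the gene) capitals mark the match, which lies on the opposite strand; it is a match of letters only.
Slc1a4: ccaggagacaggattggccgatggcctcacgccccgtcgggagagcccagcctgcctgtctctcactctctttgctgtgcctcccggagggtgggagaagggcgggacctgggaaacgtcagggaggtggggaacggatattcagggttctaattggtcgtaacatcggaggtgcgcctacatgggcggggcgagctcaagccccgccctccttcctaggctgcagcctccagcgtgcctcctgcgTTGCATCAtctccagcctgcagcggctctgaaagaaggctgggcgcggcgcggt

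Families Slc6, Slc17 and Slc18 formed a smaller group of 9. They hold carriers of GABA, creatine, taurine and monoamines, but also carriers of other substrates, such as the amino acid transporter Slc6a15. Of the 9, 5 were higher in both KO libraries (55.6%, against 16.6% of all rows), 0 lower (18.3% of all rows) and 4 overlapping (median 0.27). Slc6a11, a plasma membrane GABA transporter (GAT3), was at 9.23 and 7.24 FPKM in KO and 2.30 and 6.09 FPKM in WT (log2 fold change 0.93, SE 0.47; limma, adjusted p = 0.914). WT 1 was the low library, and without it the value was 0.37, since WT 2 came close to KO 2. Slc6a15, a neutral amino acid transporter of the same family, was at 4.60 and 4.15 FPKM in KO and 3.74 and 0.952 FPKM in WT (0.82, SE 0.53), with a value of 0.18 without WT 2 and 1.46 without WT 1. Also above both WT libraries were the taurine transporter Slc6a6 (1.41 and 1.5 FPKM in KO, 1.07 and 0.992 in WT) and the vesicular monoamine transporter Slc18a2 (1.43 and 1.43 in KO, 0.543 and 1.22 in WT). The creatine transporter Slc6a8 and the glycine transporter Slc6a9 overlapped between genotypes, at 0.846 to 2.15 and 4.13 to 5.5 FPKM in KO and at 1.05 to 2.31 and 2.96 to 5.44 FPKM in WT. Markers of neurons, which also use these carriers, summed to 11.3 and 15.7 FPKM in KO and 5.76 and 7.71 FPKM in WT over 9 genes, with 2 above and 1 below both WT libraries in KO. Slc17a6, Slc17a7 and Rbfox3 among them were below 0.1 FPKM in every library, and the part of neuronal RNA in the carrier values was not tested.

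Lipid and choline carriers included 2 of the largest differences. Slc44a2, a choline transporter-like protein, was at 7.55 and 6.90 FPKM in KO and 1.87 and 2.65 FPKM in WT. The genotypes were well apart, with a log2 fold change of 1.34 (SE 0.34; limma, adjusted p = 0.859). Its relative Slc44a1, the choline transporter CTL1 of oligodendrocytes, went by library instead, with 22 and 9.84 FPKM in KO and 21.5 and 7.80 FPKM in WT. Slc27a6, a long-chain fatty acid transport protein, was at 5.05 and 5.41 FPKM in KO and 0.858 and 2.17 FPKM in WT (1.36, SE 0.41; adjusted p = 0.859). Slc27a4, the most abundant fatty acid transport protein here, was at 51.2 and 23.8 FPKM in KO and 45.9 and 25.8 FPKM in WT, again high in both libraries numbered 1. Slc27a1 and Slc27a3 overlapped as well, at 3.73 to 6.61 and 9.38 to 10.7 FPKM in KO and at 3.02 to 4.35 and 6.14 to 16.5 FPKM in WT.

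Of the monocarboxylate and carboxylate families, 3 members overlapped. Slc16a13 and Slc16a14 lay between 2.69 and 7.66 FPKM in KO and between 2.36 and 4.38 FPKM in WT. Slc13a3, a dicarboxylate transporter, was listed at 0 in both libraries numbered 1 and at 1.27 FPKM in KO 2 and 1.35 FPKM in WT 2. The libraries numbered 2 had the higher sums of endothelial, of pericyte and fibroblast, of astrocyte and of microglial markers. The part of any of those cells was not tested.

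Of 17 metal and heme carriers, 3 lay above and 4 below both WT libraries in KO, counts near the background of 16.6% and 18.3% of all rows. The role had a median of 0.024 that was below 0 after removal of the trends over length and level (-0.061) and without KO 1 (-0.21) or WT 2 (-0.053). The plasma membrane copper importer Slc31a1 (CTR1) was at 18.4 and 17.8 FPKM in KO and 9.39 and 11.3 FPKM in WT (log2 fold change 0.75, SE 0.26; limma, adjusted p = 0.859). Slc31a2, a related copper carrier that lies 62316 bp away on chromosome 4, overlapped at 6.01 and 4.60 FPKM in KO and 4.40 and 5.11 FPKM in WT. Of the 4 lower members, 3 belong to the Slc30 family of zinc transporters, of whose other members 1 lay above both WT libraries and 2 overlapped. Slc30a4, which moves zinc into vesicles, was at 1.85 and 2.04 FPKM in KO and 3.21 and 3.34 FPKM in WT (-0.54, SE 0.34; adjusted p = 0.922). Replicates of Slc30a4 were close and the groups were apart. Slc30a1, the zinc exporter of the plasma membrane, was at 2.36 and 4.74 FPKM in KO and 6.46 and 4.92 FPKM in WT (-0.60, SE 0.41; adjusted p = 0.928). KO 1 set most of that value, which was -0.21 without it and -0.99 without KO 2. Slc30a9, a mitochondrial zinc transporter, was at 7.48 and 5.12 FPKM in KO and 9.02 and 8.65 FPKM in WT (-0.45, SE 0.33; adjusted p = 0.93), and -0.21 without KO 2 and -0.69 without KO 1. The fourth was Slc48a1, whose groups differed by -0.051 (SE 0.18; adjusted p = 0.995), at -0.028 without KO 1, with the sign turned after rescaling to TPM (0.048) and quantile normalization (0.046). Slc30a6 was higher instead, at 6.62 and 7.31 FPKM in KO and 4.37 and 6.46 FPKM in WT, and Slc30a5 and Slc30a7 overlapped, at 2.16 to 12.9 FPKM in KO and 2.43 to 12.4 FPKM in WT. Of the zinc importers, Slc39a10 was at 3.11 and 3.71 FPKM in KO and 2.41 and 2.66 FPKM in WT, and the other members of that family overlapped.

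The promoters of Slc30a1 and Slc30a4 are shown because zinc is known to regulate Slc30a1 through metal response elements, bound by the factor MTF-1. The core was searched as TGCACNC and TGCGCNC on both strands. It occurred in 7 of the 15 metal and heme members with a promoter, where a match in any promoter of a gene counted. Of all promoters, each counted singly, 25.7% held it. Capitals mark the matches, which do not overlap, 2 in Slc30a1 (chr1:191906531-191906830, plus strand, GRCm38.p6) and 3 in Slc30a4 (chr2:122702614-122702913, minus strand), written 5′ to 3′ along each gene. Slc30a9, the remaining lower member of the Slc30 family, was not among the 7 genes with a match. The rest of those 7 were Slc30a5, Slc31a2, Slc39a3, Slc39a11 and Slc39a13, which all overlapped between genotypes.
Slc30a1: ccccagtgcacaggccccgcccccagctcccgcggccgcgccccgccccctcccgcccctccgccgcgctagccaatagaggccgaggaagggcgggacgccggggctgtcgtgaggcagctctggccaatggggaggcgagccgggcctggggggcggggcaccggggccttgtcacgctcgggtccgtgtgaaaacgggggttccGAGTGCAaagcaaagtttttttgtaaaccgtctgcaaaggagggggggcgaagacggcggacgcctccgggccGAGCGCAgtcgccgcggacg
Slc30a4: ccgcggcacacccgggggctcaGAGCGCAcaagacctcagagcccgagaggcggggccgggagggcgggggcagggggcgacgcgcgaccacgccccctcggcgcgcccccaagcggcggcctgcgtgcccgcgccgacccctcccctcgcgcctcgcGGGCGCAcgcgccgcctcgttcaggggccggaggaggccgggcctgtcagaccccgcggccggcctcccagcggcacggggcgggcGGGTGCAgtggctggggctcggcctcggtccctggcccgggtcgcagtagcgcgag

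The families grouped as sugar carriers were mixed, with 4 higher, 3 lower and 5 overlapping of 12 members (median 0.22). Of all rows, 16.6% were higher and 18.3% lower. Grouping was by family number, so not every member carries a sugar, and the vitamin transporter Slc5a6 is 1 of the 3 lower. Slc50a1, the sugar efflux transporter SWEET1, was at 25.3 and 26.4 FPKM in KO and 39.9 and 29.2 FPKM in WT (log2 fold change -0.39, SE 0.25; limma, adjusted p = 0.925), and -0.17 without WT 1 and -0.61 without WT 2. Slc2a8 and Slc2a6, both glucose transporters of internal membranes, differed in pattern. Slc2a8 was at 28.8 and 24.7 FPKM in KO and 12.9 and 25.4 FPKM in WT, while Slc2a6 was at 5.06 and 5.03 FPKM in KO and 6.93 and 5.32 FPKM in WT (-0.23, SE 0.32), and -0.064 without WT 1 and -0.39 without WT 2. Slc2a13, the proton-coupled myo-inositol transporter, was at 2.73 and 2.19 FPKM in KO and 2.19 and 0.526 FPKM in WT (0.65, SE 0.49; adjusted p = 0.936), with KO 2 and WT 1 almost level and a value of 0.12 without WT 2 and 1.18 without WT 1. Slc45a4 was at 4.02 and 1.48 FPKM in KO and 1.37 and 1.14 FPKM in WT (0.65, SE 0.48), so that KO 1 alone stood off, and the value was 0.14 without it and 1.16 without KO 2. Slc5a2, the glucose cotransporter SGLT2, was at 8.71 and 10.3 FPKM in KO and 2.49 and 8.99 FPKM in WT (0.83, SE 0.57; adjusted p = 0.928), the groups overlapped, and the value was 0.069 without WT 1 and 1.58 without WT 2. The glucose 6-phosphate transporter Slc37a4 (5.93 and 7.69 FPKM in KO, 5.33 and 5.44 in WT) and its relative Slc37a3 (1.45 and 1.23 in KO, 0.365 and 0.924 in WT) were the other members above both WT libraries. Slc37a3 reached the level through KO alone, so it had to lie higher. Slc5a6, a sodium-dependent transporter of biotin and pantothenate, was at 3.22 and 2.89 FPKM in KO and 4.64 and 3.92 FPKM in WT (-0.38, SE 0.33).

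Among vitamin carriers, Slc46a3, a lysosomal member of the folate transporter family, was at 4.27 and 5 FPKM in KO and 0.605 and 2.39 FPKM in WT (log2 fold change 1.27, SE 0.48; limma, adjusted p = 0.87), and 0.73 without WT 1. Slc46a1, the proton-coupled folate transporter, was also higher in both KO libraries, at 30.9 and 22.9 FPKM in KO and 22.2 and 18.3 FPKM in WT (0.38, SE 0.27). KO 2 and WT 1 were nearly level for Slc46a1, whose value was 0.18 without KO 1, 0.59 without KO 2 and 0.25 without WT 2. The reduced folate carrier Slc19a1, the thiamine transporter Slc19a2, the vitamin C transporter Slc23a2 and the riboflavin transporter Slc52a2 overlapped, at 1.32 to 6.42 FPKM in KO and 1.80 to 4.82 FPKM in WT. The group's median of 0.23 was -0.14 without KO 1.

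Slc10a4, a synaptic vesicle protein of the bile acid transporter family, had the smallest unadjusted p of the members (0.0080). It was at 3.58 and 1.99 FPKM in KO and 0.142 and 0.088 FPKM in WT, which stood for roughly 302 and 163 reads in KO and 11 and 8 reads in WT. The log2 fold change was 1.73 (SE 0.41; limma, adjusted p = 0.859). The gene became a member through its KO values alone. The other 3 members of its role overlapped: the phosphate transporters Slc20a1 and Slc20a2 and the acetyl-CoA transporter Slc33a1 of the endoplasmic reticulum lay between 1.28 and 7.36 FPKM in KO and between 2.06 and 9 FPKM in WT.

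Most ion exchangers overlapped between genotypes. Of 15 genes in the bicarbonate, chloride, sulfate and proton families, 2 lay above and 1 below both WT libraries, where 16.6% and 18.3% of all rows did so (median 0.038, of opposite sign after quantile normalization, -0.047, after removal of the trends, -0.053, and without WT 2, -0.065). Slc12a2, the chloride importer NKCC1, was at 3.61 and 2.96 FPKM in KO and 2.91 and 1.98 FPKM in WT (0.32, SE 0.36), with KO 2 barely above WT 1 and a value of 0.21 without KO 1, 0.52 without WT 1 and 0.13 without WT 2. Slc9a7, a sodium and potassium proton exchanger of the Golgi, was at 2.41 and 2.65 FPKM in KO and 1.81 and 1.21 FPKM in WT. Slc26a6, an anion exchanger, had the largest negative fold change of the members (-1.82, SE 1.28; adjusted p = 0.928), yet it was listed at 0 and 13.4 FPKM in KO and at 16.6 and 9.21 FPKM in WT, and the value was 0.099 without KO 1 and -3.75 without KO 2. Slc9a3r1, the most abundant of this role, was at 17.9 and 24 FPKM in KO and 14.8 and 31 FPKM in WT. The 3 calcium and magnesium exchangers (Slc24a3, Slc24a5 and Slc41a1) overlapped. Slc24a3, a potassium-dependent sodium and calcium exchanger, was at 14 and 7.79 FPKM in KO and 25.2 and 8.41 FPKM in WT (-0.45, SE 0.59), and 0.29 without WT 1, -0.064 without KO 2, -0.84 without KO 1 and -1.19 without WT 2.

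No nucleoside or nucleotide sugar carrier separated the genotypes: all 8 overlapped (median 0.089). Slc35a2, which brings UDP-galactose into the Golgi, was at 20.1 and 17.7 FPKM in KO and 22.7 and 11.7 FPKM in WT, and Slc35a4 was at 35.6 and 32.6 FPKM in KO and 37.6 and 27.1 FPKM in WT. Slc29a3, a nucleoside transporter of lysosomes, differed most (-0.57, SE 0.53; limma, adjusted p = 0.949), at 1.41 and 0.199 FPKM in KO and 0.949 and 2.27 FPKM in WT, and its value was -0.066 without KO 2, -0.20 without WT 2, -0.94 without WT 1 and -1.07 without KO 1. Among 5 organic ion carriers, 0 were higher and 1 was lower in both KO libraries, where 16.6% and 18.3% of all rows were so placed. The lower member was Slc22a21 (0.918 and 0.878 FPKM in KO, 1.14 and 1.15 in WT). It reached the level through WT alone, so it had to lie lower. Slc22a3, the organic cation transporter OCT3, was at 20 and 26.1 FPKM in KO and 6.08 and 45.9 FPKM in WT (log2 fold change 0.39, SE 0.90), and -0.98 without WT 1, 1.75 without WT 2 and 0.20 without KO 2. Its WT libraries differed more than the genotypes did. Slc22a3 and the nucleoside transporter Slc29a1 (3.52 and 7.33 FPKM in KO, 2.44 and 5.32 in WT) were higher in the libraries numbered 2. Those libraries had the higher sums of endothelial, of pericyte and fibroblast, of astrocyte and of microglial markers. The part of any of those cells was not tested.

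**Figure D4:**
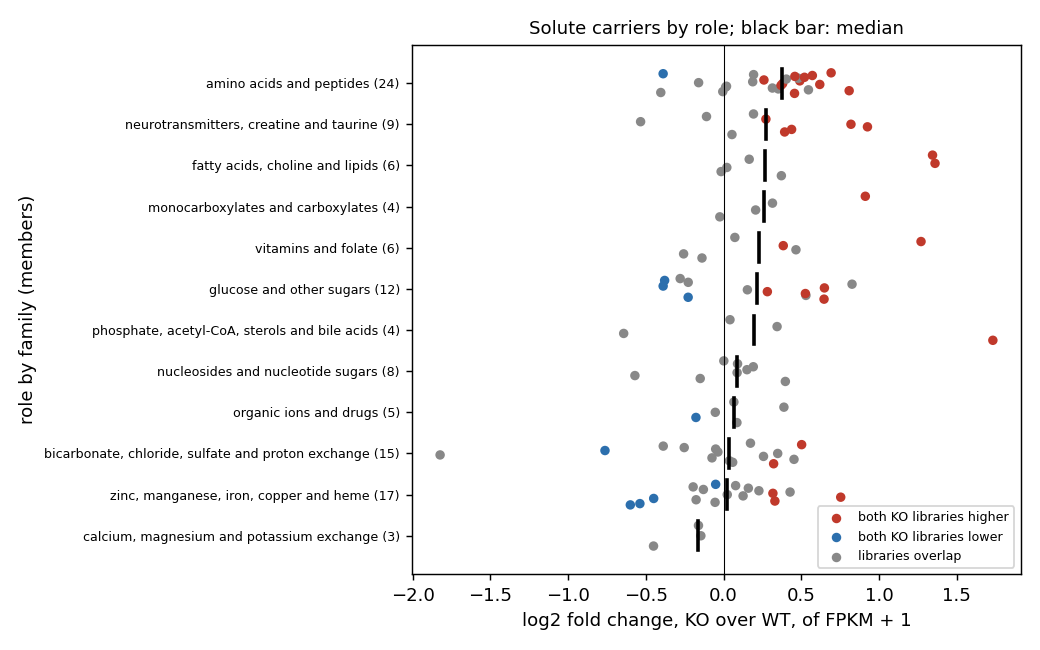
log2 fold change (KO over WT, of FPKM + 1) of each solute carrier by role, with the number of members in brackets and the median as a black bar. The amino acid and peptide role has 11 red points (both KO libraries higher) and the highest median, 0.38, and the nucleoside role has none that separate.

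**Figure D5:**
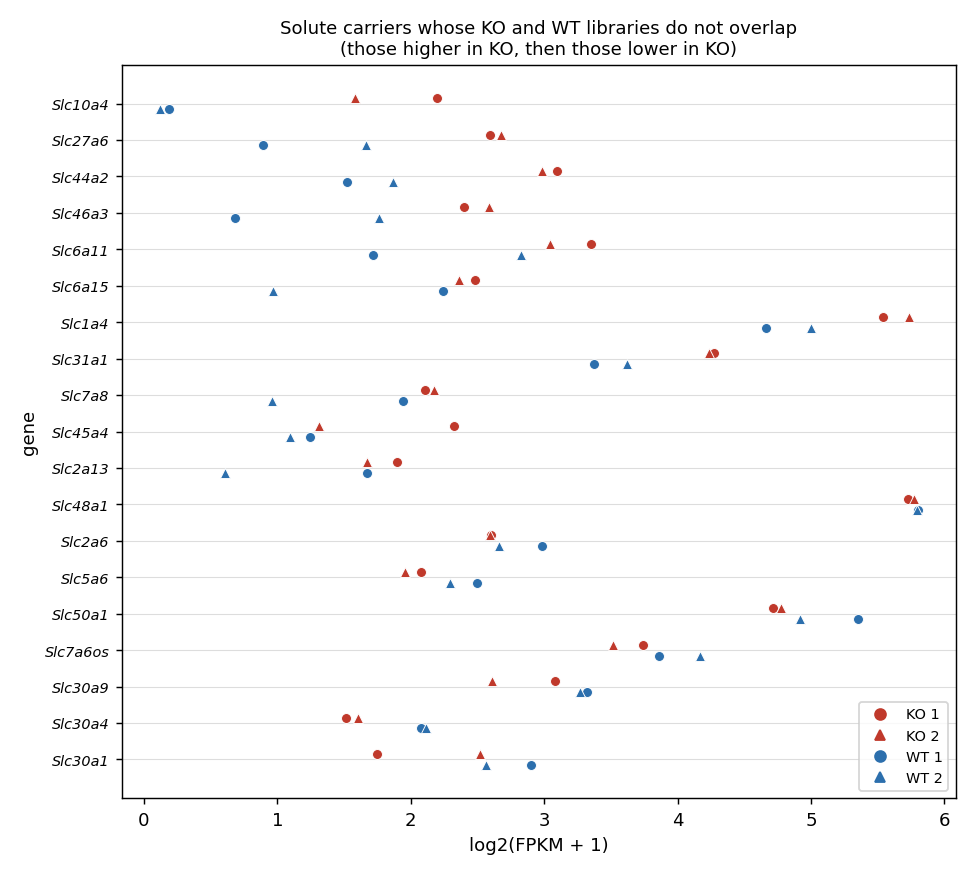
log2(FPKM + 1) by library for 11 carriers with a large positive and 8 with a negative log2 fold change among those whose genotypes did not overlap and whose higher group averaged at least 2 FPKM. KO is red and WT blue (circles library 1, triangles library 2); Slc10a4 and Slc44a2 show wide gaps, and Slc48a1 and Slc2a13 almost none.

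The spread within a genotype and the difference between genotypes were counted separately, not gene by gene. On the log2(FPKM + 1) scale, the KO libraries differed by more than 1 for 11 members (9.73%) and the WT libraries for 22 (19.5%), where 13.9% and 17.5% of all rows did so. The genotype means differed by more than 1 for 5 members (4.42%) and for 6.08% of all rows. Means of 2 libraries vary less than single libraries, so these counts cannot say which of spread and difference was larger. A single library was listed below 0.05 FPKM for 6 members (Slc1a5, Slc6a20a, Slc7a14, Slc26a2, Slc26a6 and Slc36a4), in WT for 5 of them. Slc7a6os was at 12.4 and 10.4 FPKM in KO and 13.6 and 17 FPKM in WT (-0.39, SE 0.28; -0.24 without WT 2). It lies 2011 bp from Slc7a6 in the GENCODE annotation, where these genes do not overlap. The annotation and strand setting behind the FPKM were not given.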

How the data were processed

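RNA was measured in sorted oligodendrocytes, 2 KO and 2 WT libraries. Per the labels' protocols, the kits were RNeasy Micro for total RNA and an Illumina preparation kit for libraries. TopHat and mm10 are named, per the submitters' processing notes. The authors deposited FPKM per gene and library, per the file headers. Not given in the sources used here were the estimator, annotation, strand setting and filters. Reads per FPKM were estimated from low values times the longest GENCODE M21 transcript and are approximate.

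The 10754 rows with at least 1 FPKM in at least 2 libraries were fitted as log2(FPKM + 1) with limma 3.58.1 in R 4.3.3 (genotype, mean-variance trend, Benjamini-Hochberg adjustment over all rows, threshold 0.05, two-sided). Fold changes on this scale understate the change of low genes. The fit was tested on simulated data. SE is that of the log2 fold change.

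Members, role groups by family number and lists were chosen with earlier results of these data known. Named were the 15 highest members, up to 12 each way whose genotypes did not overlap (higher group averaging 2 FPKM or more, largest change first), the highest and most different member per role, and a fixed list (Slc12a2, Slc44a1, Slc6a8, Slc6a9, Slc48a1 and Slc22a23 were members). Others were named after their values were seen. Slc22a23 was at 8.94 and 4.95 FPKM in KO and 9.36 and 5.15 FPKM in WT.

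Promoter sequences are from RefSeq (GRCm38.p6). The promoters shown and the motifs searched in them were chosen after the values were seen. Results of some members are not reported here, though counts and medians include them.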

Additional observations from a re-analysis of the deposited data

How the results depend on the processing

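No member passed an adjusted p of 0.05 under any of the 13 other settings (lowest 0.413 among those with a printed fold change), and the members' median stayed above 0 in each. With no filter on low values, 250 solute carrier rows gave a median of 0.0033, 51 higher, 22 lower and 16 at an unadjusted p under 0.05, where 13.8% of all rows were higher and 13.3% lower. Rescaling to TPM left 6 lower. With 1 library left out, the count higher was 44 to 54, the count lower 19 to 34, the count at an unadjusted p under 0.05 was 2 to 10, and the median 0.099 to 0.27. Of 9 roles with at least 5 members, all had a median above 0, against 4 to 9 with a library left out (4 without WT 2) and 6 with the trends over length and level removed. Role medians turned sign as follows: the proton and anion role (-0.053 with trends removed, -0.047 by quantile normalization, -0.065 to 0.25 with a library left out), organic ions (-0.048, -0.024, -0.0079 with no filter, and -0.19 to 0.22), metals (-0.061 with trends removed, and -0.21 to 0.22), neurotransmitters (-0.00072 with no filter), lipids (-0.11 to 0.74), nucleosides (-0.11 to 0.14) and vitamins (-0.14 to 0.51). The cause was not tested. Of 31 members with a printed fold change, 27 kept their sign in all alternatives. Slc48a1 turned to 0.046 by quantile normalization and 0.048 on TPM, and with a library left out Slc26a6 ranged from -3.75 to 0.099, Slc22a3 from -0.98 to 1.75 and Slc24a3 from -1.19 to 0.29. Without the 4 rows that are not carriers there were 31 higher and 9 lower (median 0.17), and without the 5 members that passed through 1 genotype 27 and 9 (0.15), both chosen after seeing the data. Libraries share numbers, with a correlation of deviations of 0.289 over the tested rows, but no source ties a number to a litter or day. With the number as a replicate block, 31 members were higher, 10 lower, 9 were at an unadjusted p under 0.05 and 0 passed. Total reads were not given, so no counting interval is set on low members.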
